A study of Mus musculus with 8 samples.

Results

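Snap25, Stx1a, Vamp2, Syt1, Syn2, Bsn, Dlg4, Shank3, Homer1 and Camk2a encode core proteins of the synaptic vesicle, the presynaptic active zone and the postsynaptic density. The genes were taken by name from the mm9 annotation (GENCODE release M1), where all 10 were found among 22367 protein-coding genes on the nuclear chromosomes. For each gene, every 5hmC peak that overlapped the gene span or the 10 kb on either side of it, called the window, was collected from 6 deposited peak lists. Positions are given in bp from the annotated transcription start site (TSS), negative upstream and positive in the direction of transcription.

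5hmC was mapped by GLIB-Seq, in which the modified base is glucosylated, oxidised with periodate and coupled to biotin, so that fragments carrying it can be pulled down and sequenced. There was 1 library each of E14 embryonic stem cells (ESCs), of mouse embryonic fibroblasts (MEFs), of adult brain and of adult liver, and 1 each of E14 ESCs transfected with a small hairpin against GFP (shGFP, the control) or against the Polycomb subunit Suz12 (shSuz12). MEFs, brain and liver were of the C57BL/6 strain. Brain and liver were taken at an age of 8 weeks, and the MEFs at embryonic day 11 according to the sample labels, whereas the study's methods give a later embryonic day. The transfected ESCs were selected with puromycin. RNA-Seq data of these transfected cells were not analysed here, so the level of Suz12 in the knockdown was not checked. A list of 5hmC peaks gives no expression either, so the tissue and cell labels were not checked against marker genes. Brain and liver are mixtures of cell types, and a peak carried by few cells cannot be told apart from a weaker modification carried by many.

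Transmitter release depends on SNARE proteins of the vesicle and the plasma membrane, which zip together and fuse the membranes when calcium binds to a synaptotagmin, while on the receiving side scaffold proteins hold glutamate receptors and kinases in the postsynaptic density. These genes are expressed mainly in neurons. In mammals 5hmC arises when TET enzymes oxidise 5-methylcytosine, mostly at CpG dinucleotides, and adult brain is known as a tissue rich in it.

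The lists held 171866 peaks in ESCs, 217026 in MEFs, 157512 in brain, 130409 in liver, 132999 in shGFP and 138708 in shSuz12. They covered 6.75, 7.83, 7.34, 6.39, 4.56 and 3.15% of the genome, respectively. Each peak carries a score from the peak caller, assumed to rise with the statistical evidence for the peak. Scores began at 80 for ESCs and for liver, at 30 for MEFs and for brain, at 50.02 for shGFP and at 30.34 for shSuz12, so that the lists reach down to different depths of evidence, and the median peak was narrowest in shSuz12 (564 bp, against 776 bp in shGFP and 817 to 1063 bp in the other lists). Peak lists hold no read counts, so the sequencing depth is unknown. To allow for the different extent of the lists, coverage of a gene is given as the percentage of the bp of its window that lie under peaks and, as relative coverage, as that percentage divided by the percentage of the genome under peaks in the same list. There are no replicates, so no spread can be given and no difference between lists was tested; a relative coverage at least 2-fold apart was used as a fixed limit of size.

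The windows of the 10 genes contained 746 peaks: 135 in ESCs, 192 in MEFs, 110 in brain, 73 in liver, 115 in shGFP and 121 in shSuz12. Every gene had at least 1 peak in ESCs, brain, shGFP and shSuz12, beside 77.6, 72.2, 75.8 and 76.2% of all protein-coding genes. In MEFs Snap25 had none, and in liver Snap25 and Syn2 had none. Of all protein-coding genes, 75.8% had a peak in MEFs and 68.0% in liver. All 10 genes lie on autosomes, whereas the shares of all genes, here and below, include chromosome X. There the lists hold from 22 (brain) to 757 (MEFs) peaks. These shares were also not matched for window length. Summed over the 10 windows, relative coverage was 1.94 in ESCs, 1.77 in MEFs, 1.42 in brain, 1.25 in liver, 1.99 in shGFP and 1.91 in shSuz12. Over the gene span alone the sum in liver was 0.988, below the genome instead of above it. The median gene of the 10 had a relative coverage of 4.27, 1.85, 2.36, 1.26, 3.87 and 3.01, against medians over all protein-coding genes of 1.47, 0.820, 1.12, 1.20, 1.31 and 1.38. Of the 10 genes, 6 lay above the all-gene median in ESCs, 9 in MEFs, 6 in brain, 5 in liver, 6 in shGFP and 6 in shSuz12. The sum weighs each gene by the length of its window, of which Syt1 has 533333 bp. Brain lay below the 3 ESC lists in both the sum and the median gene, but below MEFs in the sum only, and there not at a common lowest score of 80 (1.74 in brain, 1.66 in MEFs).

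The 10 genes did not form a uniform set. Stx1a, Vamp2, Camk2a, Dlg4, Shank3 and Bsn have windows with 1.44 to 2.19 CpGs per 100 bp, above the all-gene median of 1.13, and Snap25, Syt1, Syn2 and Homer1 have windows with 0.7204 to 0.812. In ESCs the 6 CpG-richer genes had a relative coverage of 3.61 to 7.13, and the 4 CpG-poorer genes of 0.207 to 0.355, with no overlap between these groups. In brain the ranges were 2.36 to 4.13 and 0.106 to 1.02, again without overlap. In shGFP they were 3.04 to 7.26 and 0.243 to 0.498, and in shSuz12 3.001 to 7.19 and 0.297 to 0.653, also without overlap. In liver the ranges overlapped, at 0.144 to 7.07 and 0 to 1.92, and likewise in MEFs, at 1.13 to 5.22 and 0 to 1.39. This split by CpG density was chosen after the coverage had been seen. How often other sets of genes separate in this way was not computed. The same split over all protein-coding genes gave a median relative coverage of 3.65 for CpG-rich and 0.237 for CpG-poor windows in ESCs. It gave 1.57 and 0.252 in MEFs, 2.32 and 0.168 in brain, 3.50 and 0 in liver, 3.28 and 0.226 in shGFP and 3.12 and 0.268 in shSuz12. Against the median of their own CpG class, higher coverage was found in ESCs and in MEFs for 5 of the 6 and 3 of the 4, in brain for 6 and 3, in liver for 3 and 2, in shGFP for 5 and 4 and in shSuz12 for 4 and 4. Across the 10 genes, CpG density and coverage had a Spearman correlation of 0.60 in ESCs, 0.491 in MEFs, 0.939 in brain, 0.669 in liver, 0.552 in shGFP and 0.491 in shSuz12 (n = 10 genes, which share a library within each value and are no replicates), against 0.831, 0.606, 0.670, 0.647, 0.806 and 0.789 over all 22367 genes.

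**Figure D1:**
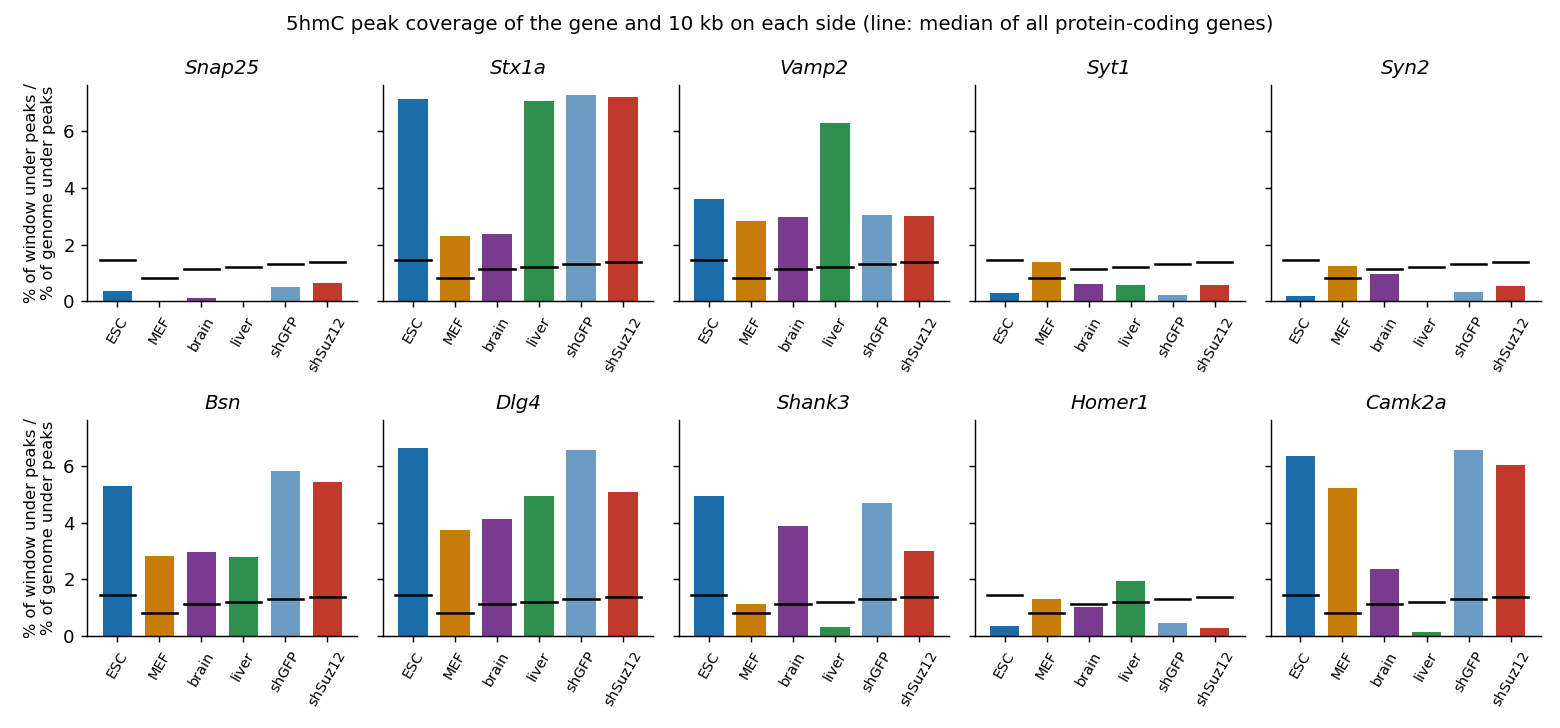
Relative coverage (percentage of the window under 5hmC peaks divided by the percentage of the genome under peaks, vertical axis) of the 10 genes in the 6 lists, 1 library each. Bars are single values, the black line is the median of all protein-coding genes in that list, and Stx1a reached 7.13 in ESCs and 2.37 in brain.

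Among the SNARE genes, Snap25, which encodes a SNARE protein anchored to the inner face of the plasma membrane, had the fewest peaks. The gene lies on the plus strand of chromosome 2, from 136539189 to 136608164, and has no other protein-coding gene in its window. ESCs had a single peak there, from -1718 to 408 bp (score 447.5), which spanned the TSS. In shGFP the same stretch held a peak from -1673 to -464 bp (score 187.6) and one from -412 to 398 bp (score 135). In shSuz12 it held a peak from -1640 to -1024 bp (score 50.9) and one from -471 to 321 bp (score 67.5), and another peak lay far inside the gene, in an intron, at 66070 to 66487 bp (score 44.6). Brain had no peak at the promoter, and its only peak was intronic, at 23158 to 23846 bp, with a score of 38.5 that exceeded only 26.6% of the brain list. MEFs and liver had no peak in the window. The 5hmC at the promoter was thus listed in the 3 ESC libraries only. The 3 lists of ESCs covered 2.39% (untransfected), 2.27% (shGFP) and 2.05% (shSuz12) of the window, and brain 0.774%, so that relative coverage in brain (0.106) was 3.36-fold lower than in ESCs (0.354); over the gene span alone, which leaves out the upstream part of the ESC peak, the direction was reversed, at 0.136 in brain and 0.0879 in ESCs.

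The promoter of Snap25 was the only TSS outside Camk2a among the 10 genes that lay under a peak in any list, and the 150 bases before it hold 11 CpGs. They are shown because the peaks of the 3 ESC libraries cover them. The sequence is the plus strand of mm9 (NCBIM37) at chr2:136539039-136539188, upstream of the first exon, with every CpG in capitals.
Snap25 upstream: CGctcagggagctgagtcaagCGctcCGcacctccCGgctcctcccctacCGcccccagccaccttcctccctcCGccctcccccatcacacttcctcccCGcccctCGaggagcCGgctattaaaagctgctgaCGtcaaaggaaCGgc

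Stx1a encodes syntaxin 1A, the plasma membrane SNARE that pairs with Snap25 and Vamp2. It lies on the plus strand of chromosome 5, from 135499352 to 135526970, and the downstream part of its window overlaps Wbscr22. Peaks covered 48.1% of the window in ESCs, 18.1% in MEFs, 17.4% in brain, 45.2% in liver, 33.1% in shGFP and 22.6% in shSuz12. Relative coverage was 7.13, 2.31, 2.37, 7.07, 7.26 and 7.19, and it exceeded that of 94.7% of all protein-coding genes in ESCs, 90.7% in liver and 71.8% in brain. The gene was therefore densely marked in ESCs and liver, with the 3 ESC lists within 7.13 to 7.26, and less densely in brain and MEFs.

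In brain the relative coverage of Stx1a was 3.01-fold lower than in ESCs and 2.98-fold lower than in liver, and it stayed at least 2-fold lower in both comparisons under each alternative setting tried. The brain list held 7 peaks, none of them upstream. Their scores ran from 32.8 to 89.1, the highest for a peak downstream of the gene, at 29596 to 31430 bp, inside Wbscr22. In ESCs the highest of 18 peaks, with a score of 935.1, lay at 15962 to 18318 bp, over exons, and in liver the highest of 14, with a score of 841.2, at 26323 to 29408 bp, across the end of the gene. Immediately upstream, between -1864 and -252 bp, every list except brain had a peak, with highest scores of 267.9 in ESCs, 150.6 in MEFs, 225.6 in liver, 72.5 in shGFP and 51.5 in shSuz12. When overlapping peaks of the 6 lists were merged, 4 regions of Stx1a held a peak of every list: 4248 to 8856 bp, 9401 to 11190 bp and 11477 to 18838 bp within the gene, and 24838 to 33759 bp across its end. In the region that began at 9401 bp, the highest scores were 333.7 in ESCs, 42.0 in MEFs, 72.8 in brain, 495.9 in liver, 87.0 in shGFP and 65.4 in shSuz12. Stx1a thus had no region marked in brain alone. Its exons were covered at 85.5% in ESCs and 82.6% in liver, but at 18.5% in brain and 0% in MEFs, where the introns were covered at 26.8%.

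Vamp2 (synaptobrevin 2) encodes the SNARE of the vesicle membrane. At 3895 bp it is the shortest of the 10 genes, on the plus strand of chromosome 11 from 68901992 to 68905886, so most of its window is flank, and the downstream end of the window reaches into Per1, a gene of the circadian clock. Peaks covered 24.3% of the window in ESCs, 22.2% in MEFs, 21.8% in brain, 40.2% in liver, 13.9% in shGFP and 9.50% in shSuz12, and relative coverage was 3.61, 2.84, 2.97, 6.29, 3.04 and 3.02. Liver had the highest value, 2.12-fold above brain, and the other 5 lists lay between 2.84 and 3.61. With scores from 80 upwards the ratio of brain (5.95) to liver (6.29) was 0.947, and brain was above ESCs (3.61) instead of below them, with a ratio of 1.65 in place of 0.824.

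Within the Vamp2 gene itself the lists differed more. The brain list and the shGFP list had no peak between the ends of the gene. A peak lay over the gene body in ESCs at 822 to 1744 bp (score 180.3), in MEFs at 977 to 2548 bp (score 116.1), in liver at 678 to 3341 bp (score 818.1) and in shSuz12 at 1647 to 2187 bp (score 37.8). The liver peak covered 68.4% of the gene. Upstream, a region from -9156 to -6432 bp had a peak in every list, with highest scores of 444.9 in ESCs, 58.8 in MEFs, 84.4 in brain, 184.3 in liver, 56.9 in shGFP and 48.9 in shSuz12. Nearer the TSS, at -2732 to -881 bp, the 5 lists other than brain had a peak, with a highest score of 235.6 in liver. Brain instead had a peak at -5306 to -4442 bp (score 43.6), overlapped by one in shGFP (score 51.1), and one just past the end of the gene at 3972 to 4745 bp (score 47.9) that no other list shared. The highest peaks of the window in brain (score 443.4, at 11956 to 16570 bp) and in liver (score 1541, at 11592 to 16605 bp) both lay over Per1 and extended past the window. The brain peak scored above 99.9% of its list, and the liver peak above 99.2%.

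Syt1 encodes synaptotagmin 1, the calcium sensor of fast release on the vesicle. It is the longest of the 10 genes, 513333 bp on the minus strand of chromosome 10 from 107934706 to 108448038, with no other protein-coding gene in its window. The window held 14 peaks in ESCs, 65 in MEFs, 25 in brain, 20 in liver, 8 in shGFP and 19 in shSuz12. They covered 2.02, 10.9, 4.61, 3.76, 1.11 and 1.79% of it, a relative coverage of 0.299, 1.39, 0.628, 0.588, 0.243 and 0.569. MEFs were highest and the ESC lists lowest. Brain was 2.10-fold above ESCs and 2.22-fold below MEFs. Against liver the direction depended on the setting, with a ratio of 1.07 as deposited, 0.524 at scores from 80 upwards, 0.990 over the gene span alone and 2.09 in the 50% of each list that scored highest. With scores from 80 upwards, 3 of the 25 brain peaks were left and the ratio of brain to ESCs was 1.03. shSuz12 was 2.34-fold above shGFP in relative coverage; the ratio was 1.16 at scores from 80 upwards and 1.62 without scaling to the genome.

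The peaks of Syt1 crowded towards its 3′ end in every list. On the 5′ side of the gene's midpoint, 0.167% was covered in ESCs, 5.37% in MEFs, 1.16% in brain, 0.258% in liver, 0% in shGFP and 0.465% in shSuz12, and on the 3′ side 4.03, 16.8, 7.16, 7.07, 2.30 and 3.25%. Within 1 kb of the TSS no list had a peak, and the only upstream peak was in brain, at -2957 to -2398 bp (score 31.2). The highest brain peak of Syt1 was at 512854 to 514077 bp (score 119.9), across the 3′ end of the gene, and no other list had a peak there; the next, at 491827 to 493286 bp (score 117.5), was also in brain alone. In ESCs and liver the highest peak was the same intronic region, 310430 to 311861 bp, with scores of 491.8 and 415.9; brain, shGFP and shSuz12 had it too, at 33.4, 92.8 and 38.4, and MEFs did not. The region from 471157 to 476217 bp had peaks in the 5 lists other than liver, with highest scores of 338.6 in MEFs, 282 in ESCs, 128.9 in shGFP, 88.4 in brain and 78.8 in shSuz12. Of the 101 merged regions of Syt1, 45 were in MEFs alone, 14 in brain alone (1 of them, at the edge of the window, overlapping a MEF peak past it) and 10 in liver alone, and none held a peak of all 6 lists.

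Syn2 encodes synapsin II, a phosphoprotein that tethers vesicles in the reserve pool. The gene spans 147725 bp on the plus strand of chromosome 6, from 115084920 to 115232644, and Timp4 and Gm17482 overlap its window. ESCs had 3 peaks, MEFs 18, brain 10, liver none, shGFP 4 and shSuz12 5. Coverage of the window was 1.397% in ESCs, 9.71% in MEFs, 7.09% in brain, 0% in liver, 1.51% in shGFP and 1.66% in shSuz12. In relative terms brain (0.967) was 4.67-fold above ESCs (0.207) and lay slightly below MEFs (1.24); at scores from 80 upwards it was above MEFs, at 1.34 against 0.946. Liver is listed at 0, so no fold is given. As liver peaks start at a score of 80, the 3 of 10 brain peaks of Syn2 that reach that score bear directly on the comparison: they lay at 117650 to 119461 bp (score 128.9), 137230 to 139897 bp (score 93.1) and 149629 to 150785 bp (score 87.7), and liver had no peak at any of them.

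All brain peaks of Syn2 lay more than 46 kb downstream of the TSS. The merged region around the peak at 117650 bp, which overlaps Gm17482, was the only one of the gene with peaks in 4 lists, with highest scores of 104.8 in ESCs, 91.0 in shGFP and 55.5 in shSuz12 beside that of brain. That at 137230 bp was shared with MEFs (score 73.9) and shSuz12 (score 38.0), and that at 149629 bp, past the end of the gene, with MEFs (score 191.2). Brain had 4 regions of Syn2 to itself, at 48037 to 48960, 68222 to 69121, 80376 to 80917 and 131459 to 132232 bp, with scores of 55.9, 66.0, 36.7 and 35.4. MEFs had the highest peak of the gene, at 133768 to 136583 bp (score 386.6), where brain had a peak of 34.4. The promoter was marked only by a peak of shGFP at 422 to 1002 bp (score 55.0), while shSuz12 had one further upstream at -1522 to -1027 bp (score 40.1).

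**Figure D2:**
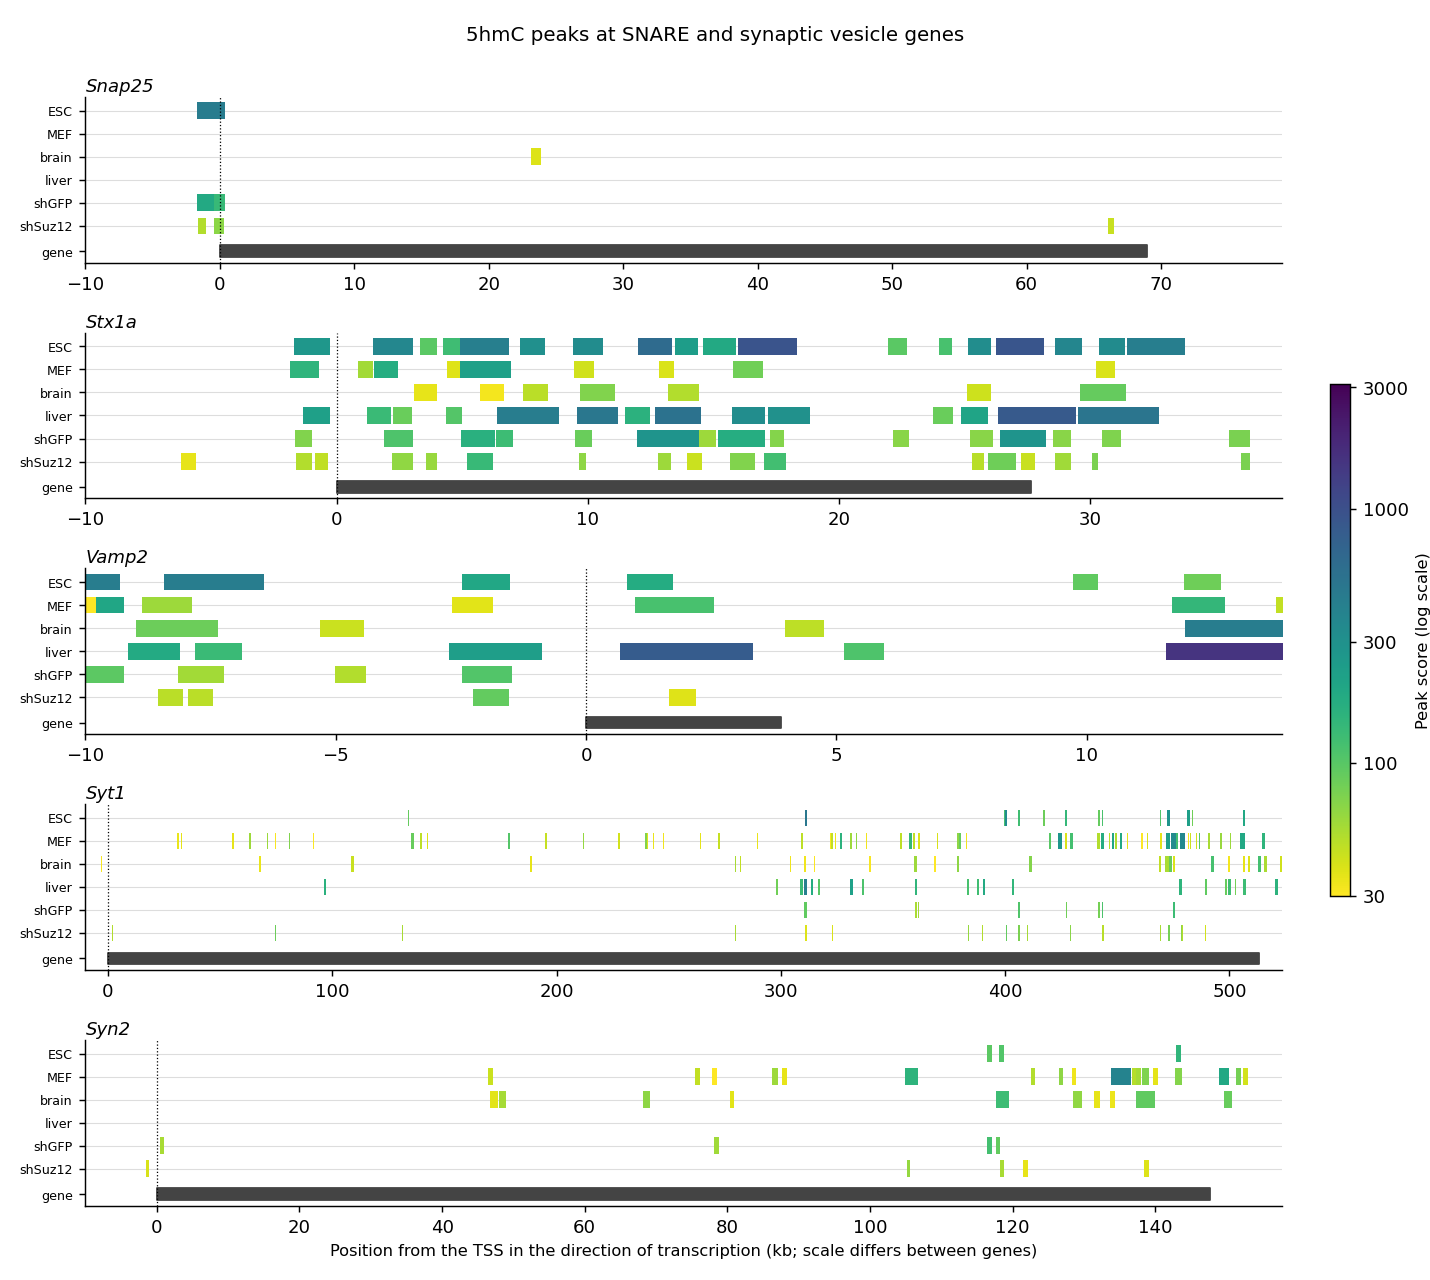
Every peak in the windows of Snap25, Stx1a, Vamp2, Syt1 and Syn2 in the 6 lists (rows), by position from the TSS in kb (horizontal axis, a different scale for each gene), with the score as colour on a log scale and the gene as a dark bar. Stx1a is covered along its length, whereas Snap25 has peaks of the 3 ESC lists at the TSS and Syt1 has most of its peaks towards the 3′ end.

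Bsn encodes Bassoon, a very large scaffold protein of the presynaptic active zone, where vesicles dock. It spans 94362 bp on the minus strand of chromosome 9, from 107998354 to 108092715, and the end of its window overlaps Apeh. Peaks covered 35.8% of the window in ESCs, 22.1% in MEFs, 21.7% in brain, 17.9% in liver, 26.6% in shGFP and 17.1% in shSuz12. The relative values were 5.30, 2.82, 2.95, 2.80, 5.82 and 5.43, so the 3 ESC lists stood above the other 3. Brain was within 2-fold of ESCs, MEFs and liver, although its ratio to ESCs went from 0.557 to 0.486 in the 50% of each list that scored highest and to 0.459 over the gene span alone.

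The highest peaks of Bsn in 5 lists lay over exons at its 3′ part. A region from 73516 to 81036 bp had a peak in every list, with highest scores of 3100 in ESCs, 422.8 in MEFs, 349.9 in brain, 115.7 in liver, 1077 in shGFP and 277.8 in shSuz12. The next region, at 81856 to 86051 bp, was also in every list, with 3096, 501.3, 118.7, 177.7, 854.9 and 239.4. A score of 3100 recurs 263 times in the ESC list, among scores of up to 3233, and may not be exact, so peaks at 3100 were not ranked against each other. The brain peak of the first region scored above 99.7% of the brain list. Liver was the exception in order: its highest peak (score 1701) lay downstream, at 99460 to 104829 bp over Apeh, and its upstream flank and the promoter held none. Exons of Bsn were covered at 77.1% in ESCs, 46.1% in MEFs, 60.7% in brain, 35.3% in liver, 77.03% in shGFP and 53.6% in shSuz12, and its introns at 29.7, 19.98, 10.3, 9.40, 19.5 and 11.4%. Exons were covered more than introns in every list. Just before the TSS, at -1421 to -34 bp, ESCs (score 363.6), brain (52.3), shGFP (78.4) and shSuz12 (60.6) had a peak, and it was the only brain peak within 1 kb of the annotated start of any of the 10 genes; with the start of any protein-coding transcript, 5 of the genes had one, beside 27.7% of all genes.

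Dlg4 encodes a membrane-associated guanylate kinase that is the main scaffold of the postsynaptic density and anchors glutamate receptors. It lies on the plus strand of chromosome 11, from 69830587 to 69859034, in a gene-dense stretch with Acadvl, Asgr1 and Dvl2 in its window. Coverage of the window was 44.6% in ESCs, 29.2% in MEFs, 30.3% in brain, 31.4% in liver, 29.9% in shGFP and 15.9% in shSuz12, a relative coverage of 6.61, 3.72, 4.13, 4.92, 6.56 and 5.06. This was the highest brain value among the 10 genes, above 89.7% of all protein-coding genes, and neither ESCs, MEFs nor liver was 2-fold from it. In the 50% of each list that scored highest, however, brain (4.51) was 2-fold below ESCs (9.06), and at scores from 80 upwards it was 2.69-fold above MEFs.

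Upstream of Dlg4 all 6 lists had peaks between -14973 and -2411 bp. The highest scores there were 3100 in ESCs, 71.5 in MEFs, 152.5 in brain, 3100 in liver, 230 in shGFP and 214.2 in shSuz12, and a single liver peak, over Acadvl and Dvl2, spanned -14973 to -3340 bp. The 10 kb upstream of the gene were covered at 69.2, 24.4, 55.9, 75.8, 45.5 and 38.8%. Inside the gene, 2 regions had a peak of every list, at 12615 to 15333 bp and at 20244 to 23896 bp, with brain scores of 36.0 and 59.3, ESC scores of 988.7 and 929.4 and liver scores of 82.1 and 499.9. Liver had no other peak in the gene, which it covered at 12.2%, against 40.4% in ESCs, 26.5% in MEFs, 22.3% in brain, 26.3% in shGFP and 10.9% in shSuz12. In liver the 10 kb downstream were covered at 41.8%. Within 1 kb of the TSS MEFs alone had a peak, at a score of 76.3.

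Shank3 encodes a scaffold that links receptor complexes to the actin cytoskeleton deeper in the postsynaptic density. The gene spans 60639 bp on the plus strand of chromosome 15, from 89330054 to 89390692, with Acr in its downstream flank. Peaks numbered 23 in ESCs, 9 in MEFs, 12 in brain, 2 in liver, 18 in shGFP and 12 in shSuz12. They covered 33.2, 8.84, 28.4, 2.17, 21.4 and 9.44% of the window, a relative coverage of 4.92, 1.13, 3.87, 0.340, 4.69 and 3.001. These values exceeded those of 84.2% of all protein-coding genes for ESCs, 58.9% for MEFs, 87.9% for brain and 37.1% for liver. Brain was 3.43-fold above MEFs and 11.4-fold above liver, and both ratios were at least 2 under each alternative setting that gave a ratio (in the 50% of the liver list that scored highest, the gene had no peak). Between brain and ESCs the direction depended on the score, with a ratio of 0.787 as deposited and 1.85 at scores from 80 upwards.

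The brain peaks of Shank3 gathered in the 3′ part of the gene. Beyond its midpoint 57.2% was covered in brain, against 37.9% in ESCs, 14.8% in MEFs, 0% in liver, 32.7% in shGFP and 11.9% in shSuz12, and before it 11.3% in brain and 36.9% in ESCs. The highest brain peak, at 46353 to 50969 bp (score 274.1), lay above 99.3% of its list, and the merged region around it also held peaks of ESCs (score 1010.2), MEFs (88.9), shGFP (204.7) and shSuz12 (84.2) but not of liver. The second highest brain score, 236.6, came from a region at 55342 to 60197 bp with the same 5 lists. The regions 39448 to 40294, 40414 to 41930 and 52333 to 53758 bp were listed in brain alone, with scores of 42.5, 75.5 and 86.5. Near the 5′ end a region at 3241 to 6640 bp held a peak of every list, including both liver peaks of the gene (scores 90.6 and 97.7) and a brain peak of 88.7. From shGFP to shSuz12 the relative coverage went from 4.69 to 3.001, a ratio of 0.640, which was 0.441 without scaling to the genome.

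Homer1 encodes an adaptor that connects metabotropic glutamate receptors with Shank proteins. The gene spans 101206 bp on the plus strand of chromosome 13, from 94073712 to 94174917, and no other protein-coding gene overlaps its window. ESCs had 4 peaks, MEFs 14, brain 10, liver 12, shGFP 3 and shSuz12 2. Coverage was 2.40% in ESCs, 10.2% in MEFs, 7.48% in brain, 12.3% in liver, 2.07% in shGFP and 0.935% in shSuz12. Liver was highest in relative terms (1.92), followed by MEFs (1.31) and brain (1.02), and the ESC lists were lowest, at 0.355, 0.453 in shGFP and 0.297 in shSuz12. Brain was 2.87-fold above ESCs as deposited. None of its 10 peaks reached a score of 80, the highest being 45.9 at 31807 to 32762 bp, so that at that score, and in the 50% of the list that scored highest, brain is listed at 0 and the direction was reversed.

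Liver had the peak of Homer1 with the highest score (639.8), at 1972 to 5020 bp over an exon and intron. MEFs shared it (score 134.8), and brain and the ESC lists did not. That liver peak scored above 94.0% of its list, and the highest MEF peak of the gene (score 240.6) above 94.5% of its own. A region at 28570 to 29571 bp, in an intron, held a peak of every list, with 305.3 in ESCs, 72.8 in MEFs, 41.8 in brain, 181.4 in liver, 134.6 in shGFP and 61.9 in shSuz12. Between 31807 and 40575 bp, 4 merged regions had peaks of both brain and liver, with brain scores of 45.9, 34.9, 30.4 and 44.9 and liver scores of 183, 271.5, 212.6 and 101.9, and MEFs shared only one of them. No list had a peak in the 10 kb upstream of the gene or within 1 kb of its TSS.

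Camk2a encodes the alpha subunit of calcium/calmodulin-dependent protein kinase II, a kinase abundant in the postsynaptic density. The gene spans 62535 bp on the plus strand of chromosome 18, from 61085272 to 61147806, with Arsi and Slc6a7 in the flanks. ESCs had 29 peaks, MEFs 36, brain 14, liver 1, shGFP 23 and shSuz12 24. They covered 42.9, 40.9, 17.3, 0.920, 29.9 and 18.9% of the window. Relative coverage was 6.35 in ESCs, 5.22 in MEFs, 2.36 in brain, 0.144 in liver, 6.55 in shGFP and 6.01 in shSuz12, and the MEF value exceeded that of 98.1% of all protein-coding genes. Brain lay between the ESC and MEF lists above it and liver below it. It was 2.70-fold below ESCs, 2.22-fold below MEFs and 16.4-fold above liver. The only liver peak, at -3765 to -3007 bp (score 105.2), was upstream of the gene. At scores from 80 upwards the ratio of brain was 0.228 to ESCs, 0.312 to MEFs and 10.1 to liver. In the 50% of each list that scored highest, and over the gene span alone, liver was listed at 0.

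Along Camk2a the brain peaks were sparse in the 5′ part. Before the midpoint of the gene 4.56% was covered in brain, against 42.3% in ESCs, 32.9% in MEFs, 30.0% in shGFP and 16.4% in shSuz12. After it, brain reached 25.2%, beside 38.2, 37.9, 26.2 and 17.0%, and liver had no peak in the gene. The highest brain peak lay over exons at 31680 to 33599 bp (score 98.1), in a region shared with ESCs (score 200.7) and MEFs (score 49.2). Brain had a region at 40765 to 41844 bp (score 87.9) and one at 72385 to 73123 bp (score 49.0) to itself. The TSS was under a peak in ESCs (score 179) and shGFP (score 85.8), and not in MEFs, brain, liver or shSuz12. Of the 39 merged regions of Camk2a, 8 held peaks of 5 lists and none of all 6.

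**Figure D3:**
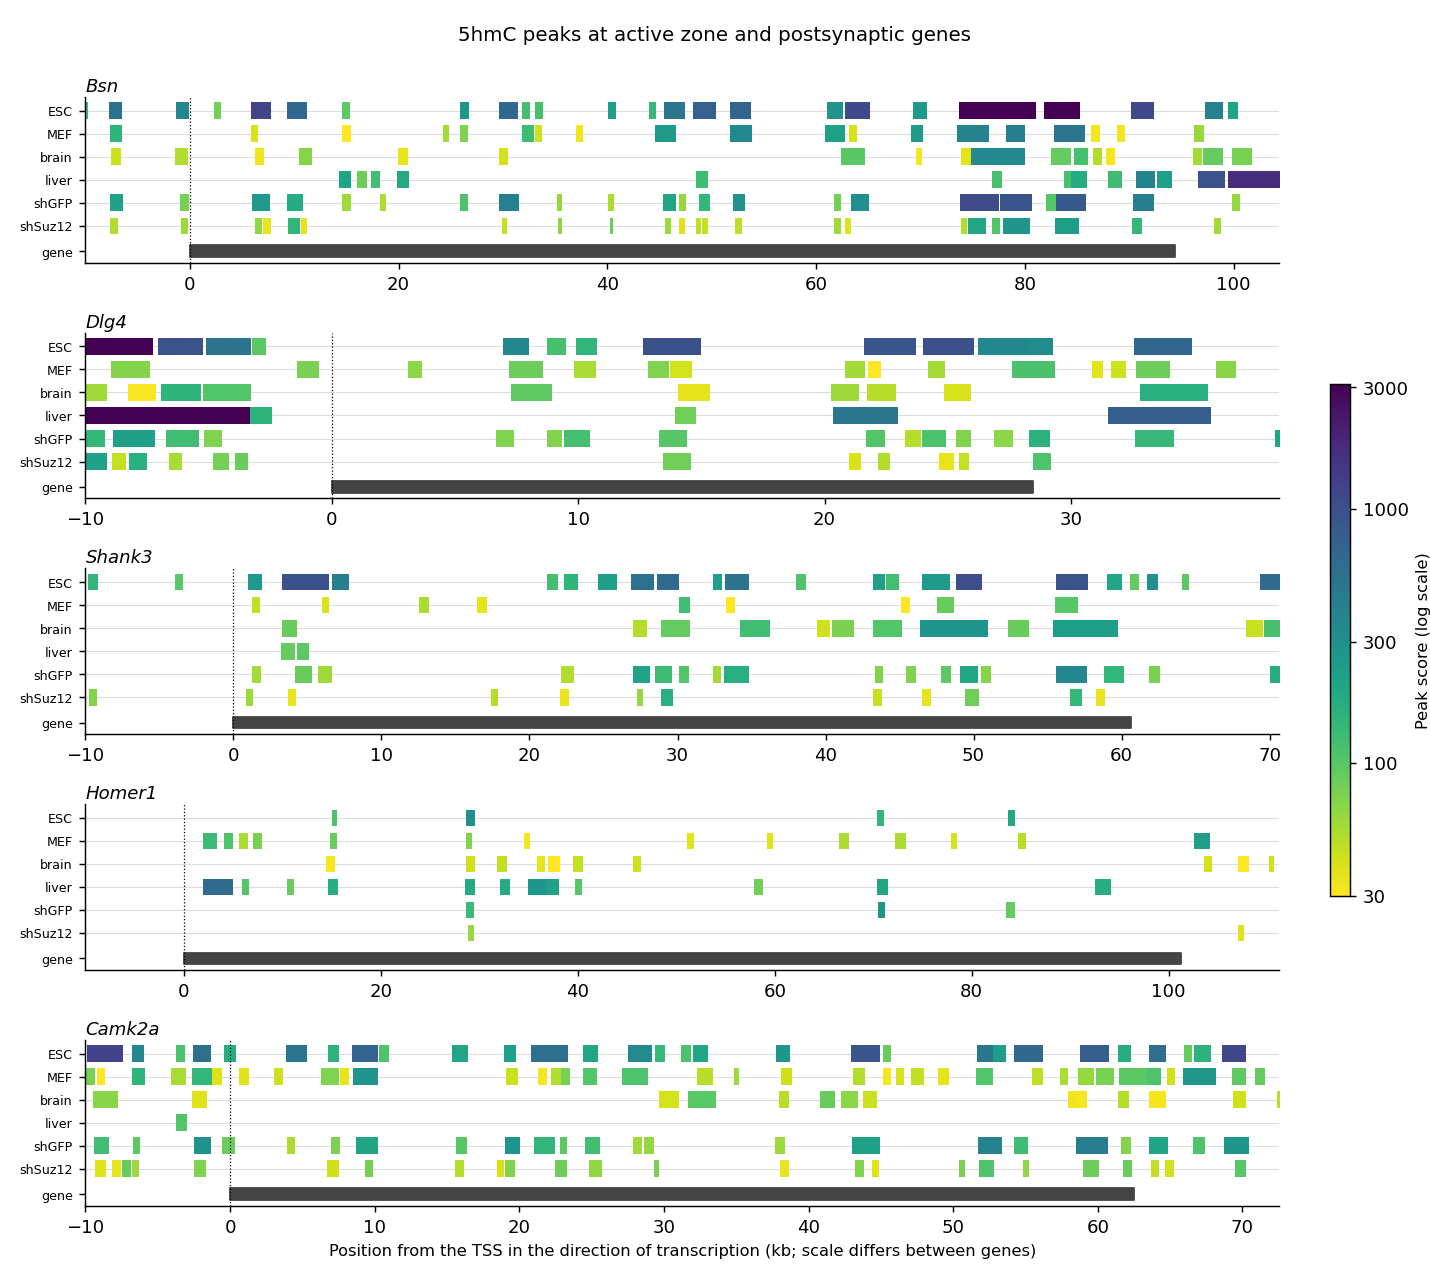
Every peak in the windows of Bsn, Dlg4, Shank3, Homer1 and Camk2a in the 6 lists (rows), by position from the TSS in kb (horizontal axis, a different scale for each gene), with the score as colour on a log scale and the gene as a dark bar. Shank3 and Camk2a have many peaks in ESCs and 2 and 1 in liver, and the darkest peaks of Bsn lie in the 3′ part of the gene.

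The first comparison set brain, where these genes are active, against the other cell types; all 3 contrasts share the brain list and are not independent. Against ESCs, 3 of the 10 genes (Syn2, Syt1 with a ratio of only 1.03 at scores from 80 upwards and 1.83 over the gene span alone, and Homer1, reversed at scores from 80 upwards) were at least 2-fold higher in brain, beside 16.7% of 17997 protein-coding genes with a peak in either list. Another 3 (Stx1a, Camk2a and Snap25, the last reversed over the gene span alone) were at least 2-fold lower, beside 34.3%. In the 50% of each list that scored highest, 6 genes were lower, with Dlg4 (0.497), Bsn (0.486) and Homer1 (0 in brain, 0.291 in ESCs) added. Over the gene span alone Vamp2 (0 in brain, 3.51 in ESCs) and Bsn (0.459) were lower too. No share of all genes was computed for these settings. The median ratio of brain to ESCs was 0.706 over the 10 genes and 0.772 over 15508 genes with peaks in both.

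Against MEFs, Shank3 and Snap25 were at least 2-fold higher in brain (2 of 10, beside 29.5% of 17743 genes), Snap25 by a single brain peak with a score of 38.5 where MEFs are listed at 0. At scores from 80 upwards, and in the 50% that scored highest, Snap25 was listed at 0 in both lists, and at scores from 80 upwards Dlg4 was higher in brain (2.69). Syt1 and Camk2a were at least 2-fold lower (2 of 10, beside 17.8%). Homer1 was lower too at scores from 80 upwards (0 in brain, 0.996 in MEFs) and in the 50% that scored highest (0 and 0.999), as was Vamp2 over the gene span alone (0 and 5.15). The median ratio was 1.03 over the 9 genes with peaks in both lists, and 1.34 over all genes with peaks in both.

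Against liver, Camk2a, Shank3, Syn2 and Snap25 were at least 2-fold higher in brain (4 of 10, beside 24.3% of 17228 genes), Snap25 by its single brain peak with a score of 38.5, below the lowest score of the liver list. At scores from 80 upwards Snap25 was listed at 0 in both lists and 3 genes were higher, a count for which no share of all genes was computed. Stx1a and Vamp2 were at least 2-fold lower (2 of 10, beside 35.9%), Vamp2 not at scores from 80 upwards (ratio 0.947) or without scaling to the genome (0.542). Bsn had a ratio of brain to liver of 1.06. Homer1 had 0.530, but was at least 2-fold lower in brain over the gene span alone (0.394), and was listed at 0 in brain at scores from 80 upwards and in the 50% that scored highest. Dlg4 had a ratio of 0.841, which was reversed to 1.34 at scores from 80 upwards and to 1.59 over the gene span alone. The median ratio over the 8 genes with peaks in both lists was 0.948, and 0.646 over all genes with peaks in both.

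The comparison of shSuz12 with shGFP concerned ESCs with a hairpin against a Polycomb subunit. Only Syt1 was at least 2-fold higher in shSuz12 (1 of 10, beside 13.6% of 17955 genes), but not at scores from 80 upwards (1.16) or without scaling to the genome (1.62). Over the gene span alone Snap25 (ratio 2.69) and Vamp2 were higher too. Vamp2 had a relative coverage of 4.41 in shSuz12, from 1 peak with a score of 37.8, and 0 in shGFP, so no ratio is given. As deposited none was at least 2-fold lower (0 of 10, beside 12.2%), although Homer1 was so under each alternative. For Stx1a, Vamp2, Camk2a and Bsn the ratio of shSuz12 to shGFP lay between 0.919 and 0.993, and for Dlg4, Shank3 and Homer1 it was 0.771, 0.640 and 0.656. For Homer1 the ratio was 0.389 in the 50% of each list that scored highest, 0.340 over the gene span alone and 0.452 without scaling to the genome, where Shank3 had 0.441. At scores from 80 upwards the direction was reversed for Stx1a (1.23), Vamp2 (1.68), Dlg4 (1.59) and Bsn (1.59). At these scores Snap25, Syn2 and Homer1 were listed at 0 in shSuz12, against 0.733, 0.245 and 0.667 in shGFP, so that 3 genes were lower. For Snap25 and Syn2 this reversed ratios of 1.31 and 1.59. No share of all genes was computed at these scores, which 17.0% of the shSuz12 peaks and 56.0% of the shGFP peaks reached. The direction for Snap25 was also reversed in the 50% of each list that scored highest (0.651) and without scaling to the genome (0.905), and that for Stx1a in the 50% that scored highest (1.31). The median over the 10 genes was 0.962, and 0.997 over 16044 genes with peaks in both.

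Within 1 kb of the TSS, 6 of the 10 genes had a peak in ESCs, beside 31.9% of all protein-coding genes. In MEFs 4 had one, beside 30.1%, in brain 1, beside 20%, and in liver 2, beside 29.4%. In the transfected ESCs 4 had one in shGFP, beside 27.1%, and 4 in shSuz12, beside 21.4%. At scores from 80 upwards these counts were 2 in MEFs, 0 in brain, 2 in shGFP and 0 in shSuz12, beside 11.99, 5.45, 19.0 and 5.07% of all genes. In MEFs 0 genes had a peak within 500 bp, beside 18.4%, and 7 had one within 1 kb of the start of any protein-coding transcript, beside 36.3%. With the start of any such transcript, 5 had one in brain, beside 27.7%, and 7 in shSuz12, beside 28.3%. Within 2 kb of the annotated TSS, 2 had one in brain, beside 32.3%. In shGFP 7 did, beside 37.5%, and in shSuz12 7, beside 33.9%. The ESC promoters with a peak were those of Snap25, Stx1a, Vamp2, Camk2a, Shank3 and Bsn, and they lay partly under it: of the 2001 bp around the TSS, peaks covered 1409 bp at Snap25, 888 bp at Bsn, 846 bp at Camk2a, 727 bp at Stx1a, 179 bp at Vamp2 and 29 bp at Shank3. Bsn was the brain promoter, with 868 bp. From shGFP to shSuz12, coverage around the TSS went from 1348 to 793 bp at Snap25, from 877 to 607 bp at Bsn, from 934 to 0 bp at Camk2a and from 579 to 0 bp at Syn2, and from 0 to 539 bp at Stx1a and from 0 to 141 bp at Shank3. Snap25 and Bsn had a promoter peak in both lists. At Stx1a a shGFP peak ended at -1001 bp, just outside the limit, and at Shank3 one began at 1244 bp. Homer1 and Syt1 had no promoter peak in any list.

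Brain peaks at these genes were compared with the other lists by an overlap of at least 1 bp. Of the 110 brain peaks, 59 overlapped an ESC peak (53.6%, exact Clopper-Pearson 95% interval 43.9 to 63.2%), beside 46.4% of the whole brain list. With MEFs 56 were shared (50.9%, 41.2 to 60.6%), beside 50.5% of the list, and with liver 35 (31.8%, 23.3 to 41.4%), beside 39.3%. These intervals cover counting error only. Of the 115 shGFP peaks, 74 overlapped a shSuz12 peak (64.3%, 54.9 to 73.1%), beside 50.5% of the whole list. At scores from 80 upwards this share was 30.1%, beside 20.9% of the whole list, and with a mutual overlap of 50% or more 37.4%, beside 31.9%. With that overlap the brain shares were 29.1% for ESCs, beside 30.1%, 16.4% for MEFs, beside 30.5%, and 19.1% for liver, beside 24.5%. At scores from 80 upwards the brain share for ESCs was 78.6%, beside 69.2%. For MEFs it was 42.9%, beside 44.9%, and for liver 39.3%, beside 58.5%.

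Merging all peaks of the 10 windows gave 282 regions, in which a list was counted only by peaks that reach into the window. On that count 12 held a peak of every list, 4 at Stx1a, 3 at Dlg4, 2 at Bsn and 1 each at Vamp2, Shank3 and Homer1, and 149 came from 1 list. The Vamp2 region over Per1 counts 4 lists in this way, although the brain peak in it also overlaps shGFP and shSuz12 peaks past the window. Of the 149, 27 were in brain alone, including a Syt1 region at 522535 to 523526 bp whose brain peak overlaps a MEF peak past the window. The lists differ in number of peaks and lowest score, and these counts were not set beside the rest of the genome. The 27 brain regions comprised 14 at Syt1, 4 at Syn2, 3 at Shank3, 2 each at Camk2a and Homer1 and 1 each at Snap25 and Vamp2, and none at Stx1a, Dlg4 and Bsn.

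The median peak of the whole lists had 1.71 CpGs per 100 bp in ESCs, 1.42 in MEFs, 1.43 in brain, 1.32 in liver, 1.76 in shGFP and 1.81 in shSuz12, against 0.834 in the genome. Pooled over all bp under peaks in the windows of the 10 genes, there were 2.17 CpGs per 100 bp in ESCs, 1.73 in MEFs, 2.07 in brain, 1.70 in liver, 2.39 in shGFP and 2.54 in shSuz12, and in the rest of the windows 0.906, 0.967, 0.956, 1.02, 0.941 and 0.978. These pooled densities and the medians over whole lists are unlike measures and were not compared. The ratio of pooled density inside peaks to that in the rest of the windows was lowest in liver (1.67) and highest in shSuz12 (2.60). Exons were covered more densely than introns in 8 of the 10 genes in ESCs, 5 of the 9 with a peak in the gene in MEFs, 6 of 9 in brain, 4 of 7 in liver, 8 of 9 in shGFP and 8 of 10 in shSuz12. The same held for 72.1, 51.6, 63.4, 57.8, 67.4 and 64.1% of all genes with introns and a peak in the gene. Vamp2 is included in these counts although its merged transcripts leave little of the gene as intron.

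The centres of the strongest brain peaks differ in CpG content. The highest brain peak was taken at each gene, and the central 200 bp are shown for the 3 genes with the highest scores, read 5′ to 3′ along the gene from mm9 (NCBIM37), with every CpG in capitals. That of Vamp2 (score 443.4; chr11:68916155-68916354, plus strand) lies downstream of the gene and beyond the 10 kb of its window, in the part of the peak over exons and an intron of Per1, holds 3 CpGs, and its peak overlaps one in each of the other 5 lists. That of Bsn (score 349.9; chr9:108015187-108015386, minus strand) lies in a coding exon of Bsn, holds 6 CpGs, and is also shared by all the other 5 lists. That of Shank3 (score 274.1; chr15:89378615-89378814, plus strand) lies in a coding exon of Shank3, holds 16 CpGs, and its peak overlaps one in 4 other lists, all but liver.
Vamp2 downstream: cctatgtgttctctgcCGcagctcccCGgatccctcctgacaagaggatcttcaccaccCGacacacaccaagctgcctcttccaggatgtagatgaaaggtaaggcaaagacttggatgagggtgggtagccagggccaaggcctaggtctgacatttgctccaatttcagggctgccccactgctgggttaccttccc
Bsn exon: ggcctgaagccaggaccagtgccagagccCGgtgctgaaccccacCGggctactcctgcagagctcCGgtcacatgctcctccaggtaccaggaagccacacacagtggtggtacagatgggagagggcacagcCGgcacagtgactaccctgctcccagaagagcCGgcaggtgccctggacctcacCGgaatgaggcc
Shank3 exon: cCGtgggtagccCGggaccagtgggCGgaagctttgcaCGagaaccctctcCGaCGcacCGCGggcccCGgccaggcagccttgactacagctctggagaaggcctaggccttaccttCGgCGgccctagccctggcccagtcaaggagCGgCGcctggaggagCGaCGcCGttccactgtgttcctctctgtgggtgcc

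Another 53 synaptic genes, all found in the annotation, were read in the same way. In brain 8 of the 53 were at least 2-fold higher than in ESCs and 27 lower (15.1 and 50.9%, beside 16.7 and 34.3% of all protein-coding genes). Against MEFs 12 of 51 with a peak in either list were higher and 12 lower (23.5% each, beside 29.5 and 17.8%). Against liver 17 of 47 were higher and 10 lower (36.2 and 21.3%, beside 24.3 and 35.9%). shSuz12 was higher than shGFP at 4 and lower at 4 of 53 (7.55% each, beside 13.6 and 12.2%). On chromosome X, which holds 5 of these genes, the brain list has 22 peaks in all, against 328 in ESCs. On the autosomes 8 of 48 were higher and 22 lower in brain than in ESCs, and 17 of 45 higher and 8 lower than in liver. Against MEFs 12 of 47 autosomal genes were higher and 8 lower (25.5 and 17.0%). shSuz12 was higher than shGFP at 2 and lower at 3 of 48. The shares of all genes given above include chromosome X, and none was computed for the autosomes alone. Among genes with peaks in both lists, the highest ratios of brain to liver were those of Amph (28.2; amphiphysin, of vesicle endocytosis), Rims1 (26.9; an active zone scaffold) and Grip1 (10.4; a glutamate receptor scaffold), with relative coverage in brain and liver of 1.35 and 0.0481, 0.456 and 0.0169, and 2.72 and 0.261. The lowest among these were those of Gphn (0.101; gephyrin, of inhibitory synapses), Syngr3 (0.188; a vesicle protein) and Homer2 (0.239; a relative of Homer1), with 0.0478 and 0.474, 1.76 and 9.36, and 1.84 and 7.69.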

How the data were processed

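5hmC was mapped by GLIB-Seq in 6 libraries, 1 per group. According to the submitters' processing notes, bases were called with CASAVA 1.8, reads were aligned to mm9 with Bowtie 0.12.7 keeping unique hits, redundant reads were collapsed, and peaks were called in each library with MACS 1.4.1. The deposited lists give each peak's position and a score, the unit of every peak value here. The score was assumed to be 10 × −log10 of the caller's p-value, which no file states. The caller's threshold and control are not given in the sources used here, and read depth is unknown because the lists hold no read counts. The sample labels give embryonic day 11 for the MEFs and the study's methods a later day.

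Genes and transcripts were taken from GENCODE M1 (NCBIM37, the same build as mm9, with 197195432 bp on chromosome 1). The 10 genes named in the text are those of a fixed list, read with 10 kb on each side, and peaks on the mitochondrial genome were left out. The genes and lists were chosen with earlier results of these data known. Coverage, overlaps, exact binomial intervals and rank correlations were computed with Python 3.11.15, numpy 2.4.6, pandas 2.3.3 and scipy 1.17.1, and figures drawn with matplotlib 3.10.9. A gene was counted as higher or lower when its relative coverage differed at least 2-fold, without a test. The code for coverage and overlap was tested on simulated data without noise. Alternatives were a score of at least 80 in every list, the better-scoring 50% of every list, the gene span alone, the median gene, coverage not scaled to the genome, other promoter widths and start sites, and a mutual overlap of 50% or more. The division by CpG density was added after the coverage was seen. The 2 RNA-Seq libraries were not analysed here.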

Additional observations from a re-analysis of the deposited data

How the results depend on the processing

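Of 88 alternative values, 1 reversed and 50 passed the limit set for their kind, which was any change in the 3 digits printed for summed coverage, a factor of 1.5 for counts and the binomial interval for shared peaks; these follow, and the cause was not tested. The other 37 did not pass it, although counts among them could differ by 1 or more. With 1 library in each condition no paired analysis was possible, and the lists give no read counts from which a limit set by depth could be computed. Summed relative coverage at a score of at least 80 was 1.66 in MEFs, 1.74 in brain, 2.22 in shGFP and 2.68 in shSuz12. In the better-scoring 50% of every list it was 2.42 in ESCs, 1.67 in MEFs, 1.396 in brain, 1.24 in liver, 2.32 in shGFP and 2.16 in shSuz12. Over the gene span alone it was 1.72 in ESCs, 1.72 in MEFs, 1.23 in brain, 1.82 in shGFP and 1.70 in shSuz12, and in liver it was 0.988, below the genome instead of above it. The median of the 10 genes was 4.27 in ESCs, 1.85 in MEFs, 2.36 in brain, 1.26 in liver, 3.87 in shGFP and 3.01 in shSuz12. At a score of at least 80, 1 gene was at least 2-fold higher in brain than in ESCs, and 0 were higher and 3 lower in shSuz12 than in shGFP. In the 50% with the highest scores, 6 genes were lower in brain than in ESCs, 1 was higher in brain than in MEFs and 1 was lower in shSuz12 than in shGFP. Over the gene span alone, 3 were higher and 1 lower in shSuz12 than in shGFP. Without scaling to the genome, 1 was lower in brain than in liver, and 0 were higher and 2 lower in shSuz12 than in shGFP. The shares of all genes at least 2-fold apart were computed for the lists as deposited only. These alternative counts therefore cannot be set beside the rest of the genome. Promoters with a peak at a score of at least 80 numbered 2 in MEFs, 0 in brain, 2 in shGFP and 0 in shSuz12. The shares of all genes were 11.99, 5.45, 19.0 and 5.07%. Within 500 bp of the TSS they numbered 0 in MEFs, beside 18.4% of all genes, and 1 in liver, beside 17.3%. Within 2 kb they numbered 2 in brain, beside 32.3%, 7 in shGFP, beside 37.5%, and 7 in shSuz12, beside 33.9%. With the TSS of any protein-coding transcript they numbered 7 in MEFs, beside 36.3%, 5 in brain, beside 27.7%, and 7 in shSuz12, beside 28.3%. At a score of at least 80, 78.6% of the brain peaks were shared with ESCs and 30.1% of the shGFP peaks with shSuz12. With a mutual overlap of 50% or more, 29.1% of the brain peaks were shared with ESCs, 16.4% with MEFs and 19.1% with liver, and 37.4% of the shGFP peaks with shSuz12.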

Other observations

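The protein-coding genes with relative coverage closest to the median of the 10 genes over the 6 lists were Camkk1 (Euclidean distance 0.768), Znrf4 (0.810), Grin2d (0.839), Prdm1 (0.883) and BC051019 (0.888). Among the 10 genes themselves the distance ran from 2.18 for Shank3 and 3.79 for Bsn to 8.44 for Stx1a. Grin2d, which encodes a subunit of the NMDA receptor, had a relative coverage of 4.73 in ESCs, 1.39 in MEFs, 2.27 in brain, 1.70 in liver, 4.09 in shGFP and 3.16 in shSuz12. These genes were named after their values were seen.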
